A study of Mus musculus with 24 samples.

Results

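Menin was mapped by chromatin immunoprecipitation sequencing (ChIP-seq) in untreated cells of a pair of mouse leukaemia lines, NUP98-HOXA9 and NUP98-HOXD13. The libraries described here are the 2 DMSO Menin libraries among the 24 libraries of the study, both labelled 96 h. They were chosen by the antibody, the agent and the cell line in the labels, and 2 MLL1 libraries and 1 H3K4me3 library of DMSO cells were set beside them. The study asked how NUP98-rearranged acute myeloid leukaemia depends on the contact between Menin and MLL1, and the drug in its other samples, VTP50469, blocks that contact. Every library used here is of cells in DMSO, the solvent, with no drug. Both lines grew in medium with interleukin 3, interleukin 6 and stem cell factor. NUP98-HOXA9 is the line coded mm202C and NUP98-HOXD13 the line coded mmNHD13. Each line had 1 Menin library, made with the same antibody and carrying the same date code in its label. No replicate was analysed here, so no difference below has a replicate check or a p-value, and a difference between the lines cannot be told apart from a difference between the libraries.

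Menin, the product of the tumour suppressor gene Men1, is a scaffold protein that helps to tether MLL1 to chromatin. MLL1 is a histone methyltransferase that places methyl groups on lysine 4 of histone H3, a mark of active gene starts in its trimethylated form (H3K4me3), and it keeps HOX genes active in blood progenitors. NUP98 fusions join part of a nuclear pore protein to a partner such as the homeodomain of HOXA9 or HOXD13, and leukaemias with these fusions are known for high expression of Hoxa genes and Meis1.

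The Menin list of NUP98-HOXA9 held 9050 regions that covered 3.88 Mb, and that of NUP98-HOXD13 held 18826 regions that covered 10.6 Mb. The median region was 371 bp wide in NUP98-HOXA9 and 501 bp wide in NUP98-HOXD13, and 26 regions in NUP98-HOXA9 against 70 in NUP98-HOXD13 were 2 kb or wider. Read depth is unknown from peak lists. The lowest deposited −log10 q was 2.02 in NUP98-HOXA9 and 2.07 in NUP98-HOXD13. The inputs and other settings behind each list are not known, so these values do not show whether the lists were called alike. The MLL1 lists had the opposite order of length, with 22534 regions in NUP98-HOXA9 (labelled 72 h) and 20154 in NUP98-HOXD13 (96 h). The H3K4me3 list of NUP98-HOXA9 held 9443 regions. In that list, 4 of 8 myeloid markers and 4 of 5 stem and progenitor markers had H3K4me3 at the gene start, against 1 of 3 erythroid, 0 of 4 B cell, 0 of 4 T cell and 0 of 3 mast cell markers, beside 39.0% of all gene starts (8431 of 21631), so the myeloid count is near the share over all genes.

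Promoters that show the main patterns are printed here, so that the values below can be read beside them. Each is the 250 bases before an annotated start, 5′ to 3′ on the gene's strand, from RefSeq assembly GRCm38.p6, with each CpG dinucleotide in capitals. Pim1, which encodes a serine/threonine kinase, had Menin in both lines over all 250 bases (chr17:29490535-29490784, plus strand, 36 CpG). Tkt, which encodes the pentose phosphate enzyme transketolase, had Menin over all 250 bases in NUP98-HOXD13 and none in NUP98-HOXA9 (chr14:30548881-30549130, plus strand, 14 CpG). Top2a, which encodes topoisomerase II alpha, an enzyme of DNA replication and chromosome segregation, had the same pattern at its start (chr11:99024190-99024439, minus strand, 9 CpG). Meis1, whose homeodomain product binds DNA together with HOX proteins, had 120 of these bases in a NUP98-HOXD13 region and none in a NUP98-HOXA9 region (chr11:19018970-19019219, minus strand, 13 CpG).
Pim1: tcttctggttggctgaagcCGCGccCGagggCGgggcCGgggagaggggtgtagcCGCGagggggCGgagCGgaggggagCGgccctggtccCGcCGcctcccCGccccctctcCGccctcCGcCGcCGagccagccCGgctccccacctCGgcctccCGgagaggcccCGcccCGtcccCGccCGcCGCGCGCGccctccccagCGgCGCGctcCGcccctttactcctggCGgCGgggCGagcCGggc
Tkt: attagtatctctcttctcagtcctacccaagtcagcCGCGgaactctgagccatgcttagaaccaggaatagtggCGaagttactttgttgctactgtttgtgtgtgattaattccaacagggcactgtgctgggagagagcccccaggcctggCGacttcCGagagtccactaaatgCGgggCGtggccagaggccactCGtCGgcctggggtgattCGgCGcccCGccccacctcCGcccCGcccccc
Top2a: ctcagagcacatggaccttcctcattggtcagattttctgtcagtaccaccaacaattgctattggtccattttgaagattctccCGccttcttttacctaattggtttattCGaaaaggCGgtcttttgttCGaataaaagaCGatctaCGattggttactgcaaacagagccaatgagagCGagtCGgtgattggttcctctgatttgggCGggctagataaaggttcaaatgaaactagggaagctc
Meis1: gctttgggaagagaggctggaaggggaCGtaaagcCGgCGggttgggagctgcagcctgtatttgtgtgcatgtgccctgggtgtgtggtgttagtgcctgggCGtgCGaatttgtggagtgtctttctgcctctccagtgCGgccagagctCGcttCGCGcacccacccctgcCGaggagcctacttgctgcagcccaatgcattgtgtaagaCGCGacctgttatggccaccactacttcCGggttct

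Almost every Menin region of NUP98-HOXA9 was also a Menin region of NUP98-HOXD13, while most regions of NUP98-HOXD13 were called in that line alone. Of the 9050 NUP98-HOXA9 regions, 8730 shared at least 1 bp with a NUP98-HOXD13 region, which is 96.5% (95% Wilson interval 96.1% to 96.8%). Of the 18826 NUP98-HOXD13 regions, 8652 were shared, or 46.0% (interval 45.2% to 46.7%). This left 320 regions (3.54%) in the NUP98-HOXA9 list alone and 10174 (54%) in the NUP98-HOXD13 list alone. These intervals, here and below, cover counting error over regions or genes only.

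Shared regions had summits close together, although the overlap that defines them itself limits how far apart the summits can lie. In the 8512 pairs where 1 region met 1 region, the summits were a median of 28 bp apart (quartiles 12 and 54 bp), and in 92.0% they were within 100 bp. The NUP98-HOXA9 region was the narrower of the pair in 95.9%, with median widths of 376 bp in NUP98-HOXA9 and 643 bp in NUP98-HOXD13.

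Whether a NUP98-HOXD13 region was shared followed its rank within its own list. The fold is the authors' enrichment of each peak and is used here only to rank peaks within a list. Each list was cut by fold into 10 bins of equal size. In the NUP98-HOXA9 list, 85.5% of the regions in the lowest bin were shared and 100.0% of those in the highest. In the NUP98-HOXD13 list the share was 8.50% in the lowest bin, 29.6% in bin 5, 61.7% in bin 7 and 99.5% in the highest. MLL1 of NUP98-HOXA9 cells was called at more of the weak NUP98-HOXD13 Menin regions than Menin was, at 54.3% of the lowest bin and 84.2% of bin 5. The MLL1 list of that line was longer than its Menin list, with 22534 regions against 9050, and these shares are not adjusted for list length.

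**Figure D1:**
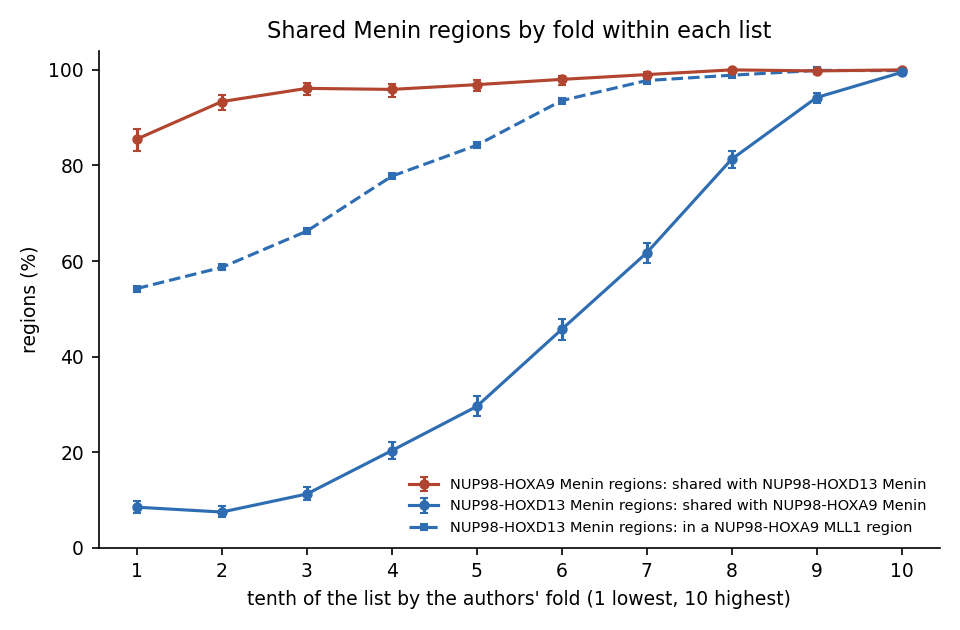
Share of Menin regions (vertical axis, percent) in each of 10 bins of a list ranked by the authors' fold (horizontal axis), for NUP98-HOXA9 regions in red and NUP98-HOXD13 regions in blue, with 95% Wilson intervals. The dashed line, drawn without intervals, is the share of NUP98-HOXD13 Menin regions that lay in an MLL1 region of NUP98-HOXA9 cells. The blue line climbs to 99.5% in the highest bin, while the red line starts at 85.5%.

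The regions called in 1 line differed in where they lay. A gene start here means a window of 1 kb either side of the annotated 5′ end. For 4357 of the 21631 genes no start was listed, and 1 kb either side of both annotated ends was used. Of the 320 regions found in NUP98-HOXA9 alone, 7.81% were at a gene start, 43.1% elsewhere in a gene and 49.1% outside genes. Of the 10174 regions found in NUP98-HOXD13 alone, 39.0% were at a gene start, 32.2% elsewhere in a gene and 28.8% outside genes. Shared regions were at a gene start in 62.8% of cases when counted in NUP98-HOXA9 and 63.0% in NUP98-HOXD13.

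MLL1 was measured in separate libraries. At the regions with Menin in NUP98-HOXA9 alone, MLL1 was called in NUP98-HOXA9 cells at 70.0% (interval 64.8% to 74.8%) and in NUP98-HOXD13 cells at 30.0% (interval 25.2% to 35.2%). At the regions with Menin in NUP98-HOXD13 alone, MLL1 was called in NUP98-HOXA9 cells at 70.5% (interval 69.6% to 71.4%) and in NUP98-HOXD13 cells at 72.8%. Each line had 1 MLL1 library, labelled 72 h in NUP98-HOXA9 and 96 h in NUP98-HOXD13, so these shares compare libraries. The date codes in the labels of the MLL1 libraries differ from each other and from that of the Menin libraries. For genes rather than regions, with Menin lists of equal length, MLL1 was at 95.2% of the starts with Menin in NUP98-HOXA9 alone in NUP98-HOXA9 cells and at 93.5% in NUP98-HOXD13 cells. Shared regions had MLL1 at 97.9% in NUP98-HOXA9 and 95.9% in NUP98-HOXD13. H3K4me3, mapped here in NUP98-HOXA9 cells, was called at 9.38% of the regions in NUP98-HOXA9 alone and 27.7% of those in NUP98-HOXD13 alone. It was at 41.8% of shared regions counted in NUP98-HOXA9 and 55.3% counted in NUP98-HOXD13. At gene starts it was at 32.0% (8 of 25) in NUP98-HOXA9 alone and 63.3% (2511 of 3969) in NUP98-HOXD13 alone. Away from gene starts these shares were 7.46% (22 of 295) and 5.01% (311 of 6205), so the order did not hold there.

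**Figure D2:**
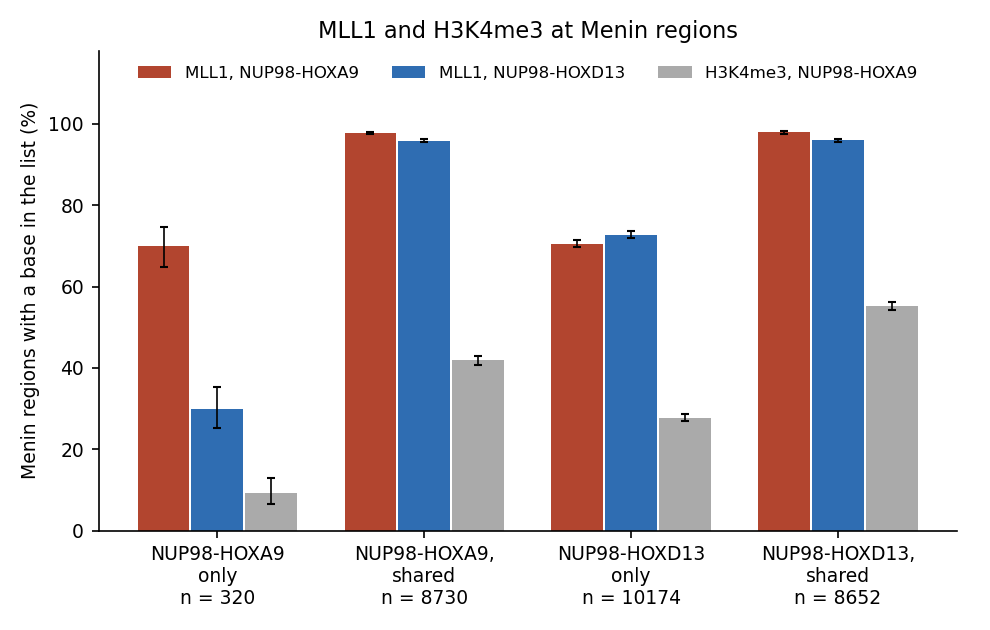
Share of Menin regions with a base in an MLL1 or H3K4me3 region (vertical axis, percent), for regions called in 1 line and shared regions (horizontal axis, with the number of regions), with 95% Wilson intervals. MLL1 of NUP98-HOXD13 cells covered 30.0% of the regions in NUP98-HOXA9 alone, and MLL1 of NUP98-HOXA9 cells covered 70.5% of those in NUP98-HOXD13 alone.

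At the level of genes, the genes with Menin in NUP98-HOXA9 were nearly a subset of those in NUP98-HOXD13. The gene table held 21631 protein-coding genes of the autosomes and the X chromosome, of which 6130 (28.3%) had Menin at the start in NUP98-HOXA9 and 9964 (46.1%) in NUP98-HOXD13. Both lines shared 6118 genes, which is 99.8% of the genes of NUP98-HOXA9 and 61.4% of those of NUP98-HOXD13. Menin was at the start in NUP98-HOXA9 alone for 12 genes (0.0555% of all genes) and in NUP98-HOXD13 alone for 3846 (17.8%). Of the 3846, 563 had a NUP98-HOXA9 region elsewhere within 2 kb of the gene or touching the NUP98-HOXD13 region, among them the actin gene Actb, which leaves 3283 with none. With the NUP98-HOXD13 list cut to its 9050 regions of highest fold, 413 genes (1.91%) had Menin in NUP98-HOXA9 alone, 1537 (7.11%) in NUP98-HOXD13 alone and 5717 (26.4%) in both, so the 12 and the 3846 depend on the lengths of the lists.

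The share of these genes with Menin in NUP98-HOXA9 followed the fold at the start in NUP98-HOXD13. With the 9964 genes cut by that fold into 5 bins of equal size, it was 9.64% in the lowest bin, 69.6% in the middle bin and 98.9% in the highest. MLL1 was at the start of most genes with Menin in NUP98-HOXD13 alone, in 87.4% of them in NUP98-HOXA9 cells and 91.1% in NUP98-HOXD13 cells, and 84.0% had it in both. H3K4me3 of NUP98-HOXA9 cells was at 70.6% of these starts. The same shares were 99.6%, 99.6% and 85.8% for genes with Menin in both lines, and 4.46%, 4.69% and 3.93% for genes with Menin in neither.

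Among genes with Menin in both lines, the 8 of highest mean rank by fold were led by Kremen1 and Pim1. Kremen1, which encodes a receptor that antagonises Wnt signalling (chromosome 11, 5191551 to 5261713), had a fold of 50.9 within the NUP98-HOXA9 list and 131 within the NUP98-HOXD13 list. Pim1 (chromosome 17, 29490785 to 29496111) had a fold of 48.6 within the NUP98-HOXA9 list and 143 within the NUP98-HOXD13 list. The neighbours Kdm1b, a histone demethylase gene, and Tpmt, which encodes an enzyme that inactivates thiopurines, share 1 region, with folds of 44.7 in NUP98-HOXA9 and 151 in NUP98-HOXD13. Ripk2, which encodes a kinase of innate immune signalling, Plekho2, Abcb9 and Klhl36 complete the 8 of highest mean rank. All 8 had MLL1 at the start in both lines. The folds of different lists are not on a common scale and are not compared.

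Genes with Menin in NUP98-HOXD13 alone and no NUP98-HOXA9 region nearby were led by Tkt, with a fold of 41.3 in the NUP98-HOXD13 list and a region of 870 bp (chromosome 14, 30548798 to 30549667). Next came Grhl1, which encodes a grainyhead-like transcription factor, with 39.3, and Ung, which encodes uracil-DNA glycosylase, with 38.6 and a region of 1549 bp. The remaining 7 of the 10 with the highest fold were Cnn3, Azin2, Grsf1, Gpcpd1, Acer2, Ero1b and Pdpr. All 10 had MLL1 at the start in both lines. At Tkt, MLL1 covered 1264 bp of the gene in NUP98-HOXA9 and 733 bp in NUP98-HOXD13, so the line without a Menin call had the longer MLL1 length there.

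Menin at the start in NUP98-HOXA9 alone was found at 12 genes, of which 9 had no NUP98-HOXD13 region nearby. H6pd and Slc22a4 are among the 3 that had one, and Menin was longer there in NUP98-HOXD13, with 1039 and 345 bp in NUP98-HOXA9 and 1783 and 467 bp in NUP98-HOXD13. Stau2, which encodes an RNA-binding protein that transports mRNA, had the highest fold, 9.12, with 462 bp of Menin in NUP98-HOXA9 and 0 in NUP98-HOXD13. Igf2bp3, an RNA-binding protein gene that is active in fetal tissue and in several leukaemias (chromosome 6, 49085218 to 49215469), had 562 bp of Menin in NUP98-HOXA9 and 0 bp in NUP98-HOXD13. Its MLL1 length was 344 bp in NUP98-HOXA9 and 0 bp in NUP98-HOXD13, and H3K4me3 covered 1188 bp in NUP98-HOXA9. Ifih1, which encodes the viral RNA sensor MDA5, had 454 bp of Menin in NUP98-HOXA9 and 0 bp in NUP98-HOXD13, with MLL1 over 1846 bp in NUP98-HOXA9 and 1536 bp in NUP98-HOXD13. The others were Olfr1310, Gm38523, H6pd, Slc22a4, Gstp3, Gm1110, Smok3b, Mgam and F10. With regions of −log10 q of at least 5 only, 7 of the 12 kept the NUP98-HOXA9 call, and Ifih1, F10, Gm1110, Mgam and Smok3b had no Menin in either line. Of the 12, 8 had MLL1 at the start in NUP98-HOXA9 and 4 in NUP98-HOXD13.

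Menin covered a shorter length in NUP98-HOXA9 at nearly all genes. Covered length is the number of bases of a gene, with 2 kb either side, that lie in called regions, so it measures extent rather than binding level. Over the 11609 genes with a region in either list it summed to 3731069 bp in NUP98-HOXA9 and 10296328 bp in NUP98-HOXD13, or 36.2%. It was at most 50% of the NUP98-HOXD13 length at 7553 genes (65.1%) and longer in NUP98-HOXA9 at 144 (1.24%). It was shorter in NUP98-HOXA9 at 11465 (98.8%). At the 7440 genes with Menin in both lines, the medians were 428 bp in NUP98-HOXA9 and 862 bp in NUP98-HOXD13. Much of the NUP98-HOXD13 length lay in regions of low fold, and with lists of equal length the sum in NUP98-HOXA9 was 52.9% of that in NUP98-HOXD13. Menin was then shorter in NUP98-HOXA9 at 8096 of 9017 genes (89.8%).

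Genes with broad MLL1 were looked at apart. For 148 genes with at least 4 kb of MLL1 in both lines, median Menin length was 682 bp in NUP98-HOXA9 and 2906 bp in NUP98-HOXD13, although their median MLL1 length was 6782 bp in NUP98-HOXA9 and 5552 bp in NUP98-HOXD13. The median ratio of Menin length to MLL1 length per gene was 8.70% in NUP98-HOXA9 and 48.5% in NUP98-HOXD13. This ratio compares lengths and does not ask whether Menin lay within MLL1 regions. For the 10541 genes under 4 kb of MLL1 in both lines, the same ratios were 29.7% in NUP98-HOXA9 and 88.6% in NUP98-HOXD13. With lists of equal length the NUP98-HOXD13 ratios were 20.4% at the 148 genes and 70.9% at the 10541, and those of NUP98-HOXA9 were unchanged. Other measures gave a smaller contrast between these sets or the opposite order. The summed Menin length in NUP98-HOXA9 was 30.0% of that in NUP98-HOXD13 at the 148 genes and 37.8% at the 10541, and with lists of equal length it was 67.0% and 51.8%. A Menin region was called in NUP98-HOXA9 at 90.5% of the 148 and 66.6% of the 10541, and in NUP98-HOXD13 at 100.0% and 97.2%.

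The Hox clusters differed from each other. At the Hoxa cluster, which holds the Hoxa9 and Hoxa10 genes of leukaemic self-renewal, NUP98-HOXA9 had 3 Menin regions of 802 bp in all and NUP98-HOXD13 had 17 regions of 12899 bp. MLL1 there covered 26351 bp in NUP98-HOXA9 and 23603 bp in NUP98-HOXD13. Hoxa9 itself (chromosome 6, 52223097 to 52227370) had 255 bp of Menin in NUP98-HOXA9 and 3602 bp in NUP98-HOXD13. Hoxa7 had 245 bp in NUP98-HOXA9 and 4846 bp in NUP98-HOXD13. Hoxa10 had 0 bp in NUP98-HOXA9 and 2069 bp over 4 regions in NUP98-HOXD13. The 3 NUP98-HOXA9 regions, at Hoxa3, Hoxa7 and Hoxa9, each met a NUP98-HOXD13 region. Among the 9050 regions of highest fold in NUP98-HOXD13, 2 regions of 2988 bp were left at the cluster, against the 3 of 802 bp in NUP98-HOXA9. They left 870 bp at Hoxa9, 2118 bp at Hoxa7 and 0 bp at Hoxa10 in NUP98-HOXD13, so the Hoxa10 difference was lost.

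At the Hoxb cluster the number of regions was alike in the full lists, with 9 regions of 3842 bp in NUP98-HOXA9 and 10 regions of 9560 bp in NUP98-HOXD13, and their positions were not. With −log10 q of at least 5 the numbers were unlike, with 3 regions of 1831 bp in NUP98-HOXA9 and the same 10 in NUP98-HOXD13. In the full lists, the 9 NUP98-HOXA9 regions lay between Hoxb3 and Hoxb6, and 5 of the 9 met no NUP98-HOXD13 region. NUP98-HOXD13 had in addition 4 regions at Hoxb7 and Hoxb8, where NUP98-HOXA9 had none. At Hoxb8, Menin covered 0 bp in NUP98-HOXA9 and 3354 bp in NUP98-HOXD13, while MLL1 covered 6774 bp in NUP98-HOXA9 and 8040 bp in NUP98-HOXD13. At Hoxb4 the order was opposite, with 1058 bp of Menin in NUP98-HOXA9 and 815 bp in NUP98-HOXD13, but with regions of −log10 q of at least 5 only, Hoxb4 had 0 bp in NUP98-HOXA9 and 815 bp in NUP98-HOXD13. The Hoxc cluster had 8 regions of 3224 bp in NUP98-HOXA9 and 4 regions of 4368 bp in NUP98-HOXD13, and Hoxc4 had 1156 bp in NUP98-HOXA9 and 313 bp in NUP98-HOXD13. With −log10 q of at least 5, the Hoxc cluster had 5 regions of 2292 bp in NUP98-HOXA9 and 4 of 4368 bp in NUP98-HOXD13. The order at these clusters turned with lists of equal length. None of the NUP98-HOXD13 regions at the Hoxb cluster was among the 9050 of highest fold, so NUP98-HOXA9 had 3842 bp there and NUP98-HOXD13 had 0 bp, and Hoxb8 had 0 bp in both lines. At the Hoxc cluster, 3224 bp in NUP98-HOXA9 stood against 677 bp in NUP98-HOXD13. The Hoxd cluster had no Menin, MLL1 or H3K4me3 region in any of the 5 lists.

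**Figure D3:**
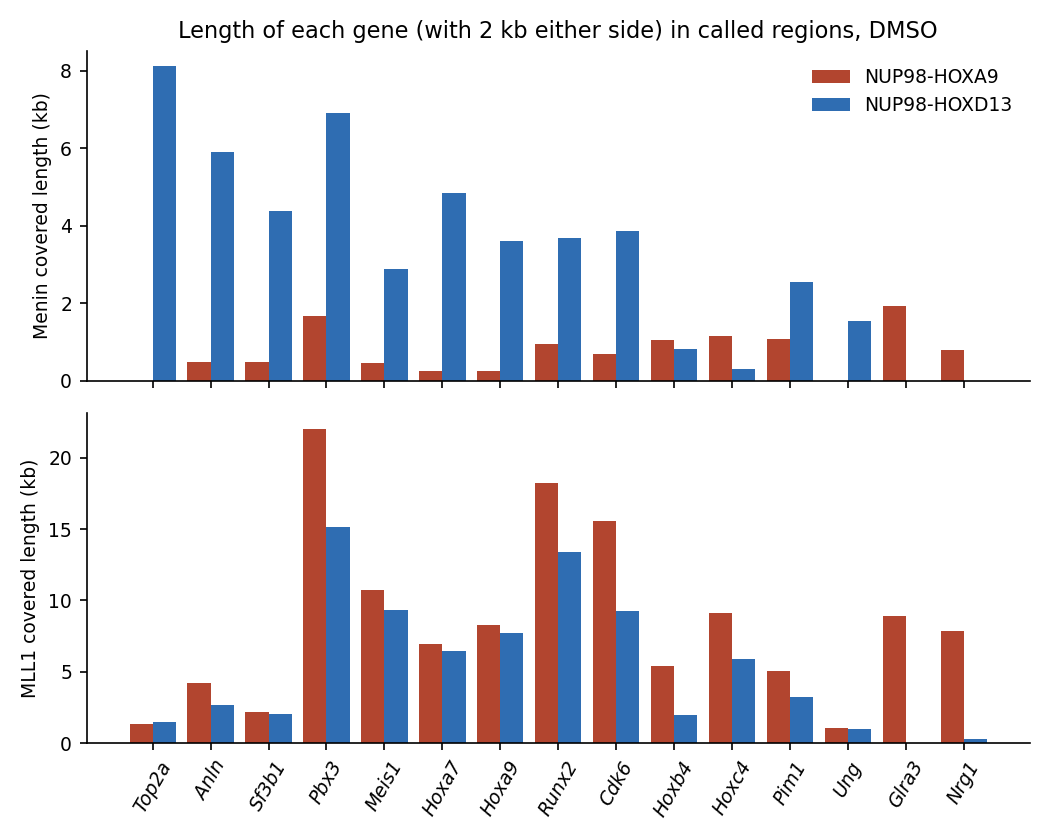
Length of each gene, with 2 kb either side, in Menin regions (upper panel) and MLL1 regions (lower panel) in kb, with NUP98-HOXA9 in red and NUP98-HOXD13 in blue, 1 library each. Meis1 had 457 bp of Menin in NUP98-HOXA9 and 2888 bp in NUP98-HOXD13, and Glra3 had Menin and MLL1 in NUP98-HOXA9 alone.

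The HOX partner genes did not share 1 pattern. Of the 9 listed, 4 had Menin at the start in both lines, 2 in NUP98-HOXD13 alone and 3 in neither, and 66.7% of the 6 with Menin in NUP98-HOXD13 also had it in NUP98-HOXA9, beside 61.4% over all genes. Meis1 (chromosome 11, 18880428 to 19019651) had 1 Menin region of 457 bp in NUP98-HOXA9 and 7 regions of 2888 bp in NUP98-HOXD13, with MLL1 over 10718 bp in NUP98-HOXA9 and 9331 bp in NUP98-HOXD13. At Pbx3 (chromosome 2, 34171457 to 34372045), whose product also binds beside HOX proteins, Menin covered 1663 bp in NUP98-HOXA9 and 6907 bp in NUP98-HOXD13. Most of that length lay in regions of low fold: among the 9050 regions of highest fold in NUP98-HOXD13, 439 bp were left at Meis1 and 1300 bp at Pbx3, which is shorter than in NUP98-HOXA9. With −log10 q of at least 5, Meis1 had 0 bp in NUP98-HOXA9 and 2640 bp in NUP98-HOXD13. Pknox1, whose product also pairs with PBX proteins, had Menin at the start with a high fold in both lists, over 884 bp in NUP98-HOXA9 and 1472 bp in NUP98-HOXD13. Pbx2 and Pbx4 had Menin at the start in both lines too, with 431 and 315 bp in NUP98-HOXA9 and 559 and 568 bp in NUP98-HOXD13.

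Genes known as Menin-MLL targets in leukaemia with rearranged MLL had Menin at the start in NUP98-HOXA9 at 7 of 27, beside 28.3% of all genes, and in NUP98-HOXD13 at 20 of 27, beside 46.1% of all genes. Of the 27, 7 had Menin at the start in both lines, 13 in NUP98-HOXD13 alone, 0 in NUP98-HOXA9 alone and 7 in neither. The 7 are 35.0% (interval 18.1% to 56.7%) of the 20 with Menin in NUP98-HOXD13, against 61.4% over all genes. The median fold of these 20 starts within the NUP98-HOXD13 list was 11.6, against 19.1 over all genes with Menin there, and, as above, genes of low fold there had a low share in NUP98-HOXA9. With lists of equal length, 7 of 10 such targets had Menin in NUP98-HOXA9 (70.0%), against 78.8% over all genes.

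The members with Menin in both lines were Bcl2, Cdkn2c, Dot1l, Myb, Myc, Pbx3 and Tcf4. Myb, a transcription factor gene of blood progenitors, had 536 bp in NUP98-HOXA9 and 2349 bp in NUP98-HOXD13, and Myc had 560 bp in NUP98-HOXA9 and 1251 bp in NUP98-HOXD13. Cdk6, a cell cycle kinase gene, had Menin at the start in NUP98-HOXD13 alone, and 687 bp in the gene in NUP98-HOXA9 against 3875 bp in NUP98-HOXD13. Eya1, Mef2c and Flt3 had the same pattern, with 518, 405 and 372 bp in NUP98-HOXA9 and 3412, 2592 and 1596 bp in NUP98-HOXD13. Jmjd1c, Kit and Zeb2 had no Menin region in NUP98-HOXA9 and 1425, 835 and 1234 bp in NUP98-HOXD13. When the lists were of equal length, these 3 genes had 0 bp in both lines, and Eya1, Mef2c, Flt3 and Cdk6 had 533, 1061, 665 and 2038 bp in NUP98-HOXD13. The whole list had 8631 bp of Menin in NUP98-HOXA9 and 49317 bp in NUP98-HOXD13, or 17.5%, beside 36.2% over all genes. With lists of equal length the list's share was 40.1% and that over all genes 52.9%. Menin was shorter in NUP98-HOXA9 at all 25 members with a region, beside 98.8% of all genes with one.

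Stem and progenitor regulators, a list that overlaps the targets, had 7 of 18 members with Menin in NUP98-HOXA9 among those with it in NUP98-HOXD13 (38.9%, beside 61.4% over all genes). With lists of equal length it was 7 of 11 (63.6%), beside 78.8%. Lyl1, Tal1, Hhex, Hlf, Foxo3, Myb and Runx1 had it in both lines. Runx1, a master regulator of blood stem cells, had 1361 bp in NUP98-HOXA9 and 5002 bp in NUP98-HOXD13. Gata2, another transcription factor gene of blood stem cells, had 0 bp in NUP98-HOXA9 and 1040 bp in NUP98-HOXD13, with MLL1 over 2398 bp in NUP98-HOXA9 and 3580 bp in NUP98-HOXD13. At equal list length Gata2 had 0 bp of Menin in both lines, and Runx1 had 2269 bp in NUP98-HOXD13.

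Myeloid differentiation genes had 11 of 20 (55.0%), beside 61.4% over all genes. With lists of equal length they had 7 of 12 (58.3%), beside 78.8% over all genes, which was lower than the targets (70.0%) and the stem and progenitor regulators (63.6%), so the order of these lists depends on the list length. Spi1, which encodes the myeloid factor PU.1, Gfi1, Cebpd and the neutrophil granule gene Camp had Menin in both lines. Cebpa, Cebpb, Irf8 and Klf4, all transcription factor genes of myeloid cells, had none in NUP98-HOXA9 and had it in NUP98-HOXD13. At Cebpb the length was 0 bp in NUP98-HOXA9 and 2632 bp in NUP98-HOXD13, and MLL1 covered 2594 bp in NUP98-HOXA9 and 2179 bp in NUP98-HOXD13. Camp was the myeloid member with the longer length in NUP98-HOXA9, 376 bp against 280 bp in NUP98-HOXD13.

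Most genes of general cell function had Menin in both lines. Of the cytosolic ribosomal protein genes 63 of 75 had it in NUP98-HOXA9 among those with it in NUP98-HOXD13 (84.0%, interval 74.1% to 90.6%), of the cell cycle regulators 20 of 24 (83.3%), of the housekeeping genes 20 of 25 (80.0%), and of the MLL fusion partner and elongation genes 13 of 14 (92.9%), beside 61.4% over all genes. Mitochondrial ribosomal protein genes stood lower, with 20 of 39 (51.3%). Their median fold in NUP98-HOXD13 was 14.1, against 23.4 for the cytosolic ones. Cell cycle, housekeeping and elongation lists had median folds of 21.35, 24.97 and 29.96, above the 19.1 over all genes with Menin there. Fold and share are thus not separated here. At equal list length the housekeeping share was 18 of 22 (81.8%), near the 78.8% over all genes. The cytosolic list then had 58 of 64 (90.6%) and the mitochondrial list 15 of 22 (68.2%). Cell cycle regulators had 19 of 19 (100.0%) and the elongation list 13 of 14 (92.9%). The cell cycle members with Menin at the start in NUP98-HOXD13 alone were Cdk6 and the inhibitor genes Cdkn1a, Cdkn1b and Cdkn2a. Cdkn1b and Cdkn2a had 0 bp in both lines at equal list length.

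The genes of the Menin and MLL complexes had Menin in both lines in 11 of 18 (61.1%), the share over all genes. Kmt2a, which encodes MLL1 itself, had 527 bp in NUP98-HOXA9 and 1226 bp in NUP98-HOXD13. Men1 had Menin at the start in NUP98-HOXD13 alone, with 252 bp in the gene in NUP98-HOXA9 and 1048 bp in NUP98-HOXD13. Psip1, which encodes LEDGF, the protein that binds Menin and MLL1 to chromatin, had 0 bp in NUP98-HOXA9 and 1090 bp in NUP98-HOXD13. Setd1a, Setd1b and Rbbp5, which encode parts of other H3K4 methyltransferase complexes, had none in NUP98-HOXA9 and 1869, 1367 and 719 bp in NUP98-HOXD13. At equal list length Psip1 and Rbbp5 had 0 bp in both lines and Setd1a 554 bp in NUP98-HOXD13, and the list had 10 of 11 starts (90.9%), beside 78.8% over all genes.

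Of the remaining lists, interferon-stimulated genes had 7 of 11, the MYC-MAX network 8 of 11, and genes related to NUP98 fusions 7 of 8, beside 61.4% over all genes. The interferon count is near that share. The lists of other cell types had shares below those over all genes (28.3% in NUP98-HOXA9 and 46.1% in NUP98-HOXD13). These were 3 of 17 erythroid and megakaryocyte genes in NUP98-HOXD13 and 1 of them in NUP98-HOXA9, 2 of 20 lymphoid genes (Gata3 and Tcf7) and 2 of 10 mast cell and basophil genes in NUP98-HOXD13 and 0 in NUP98-HOXA9. MHC class II genes had 3 of 9 in NUP98-HOXD13 and 1 in NUP98-HOXA9, and the neuronal and epithelial genes 1 of 16 (Epcam) in NUP98-HOXD13 and 0 in NUP98-HOXA9.

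**Figure D4:**
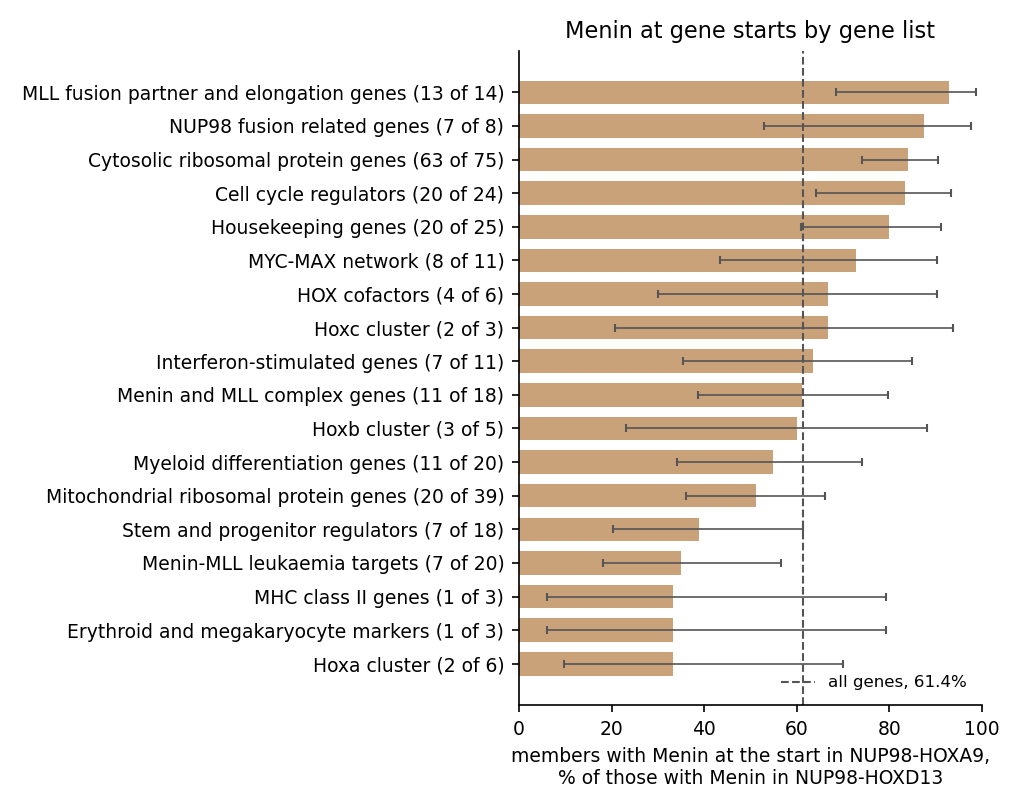
Members of each list with Menin at the gene start in NUP98-HOXA9, as a percent of the members with Menin there in NUP98-HOXD13 (horizontal axis, counts in brackets), with 95% Wilson intervals, for lists with at least 3 such members. The dashed line marks all genes, 61.4%, with Menin-MLL leukaemia targets at 35.0% and cytosolic ribosomal protein genes at 84.0%.

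The longest differences in covered length were at genes where NUP98-HOXD13 had many regions. Top2a (chromosome 11, 98992947 to 99024199) had 0 bp of Menin in NUP98-HOXA9 and 8113 bp over 14 regions in NUP98-HOXD13, and 13 of the 14 lay outside the MLL1 regions of NUP98-HOXD13. Anln, which encodes an actin-binding protein of cell division, had 473 bp in NUP98-HOXA9 and 5913 bp in NUP98-HOXD13. Sf3b1, a splicing factor gene, had 497 bp in NUP98-HOXA9 and 4391 bp in NUP98-HOXD13. Most of this length was in regions of low fold. Among the 9050 regions of highest fold in NUP98-HOXD13, 332 bp were left at Top2a, 935 bp at Anln and 664 bp at Sf3b1, and with −log10 q of at least 5, 3300, 1983 and 3464 bp. In all, 42 genes had at least 3 Menin regions in NUP98-HOXD13 alone that lay outside its MLL1 regions, among them Cnot1, Dhx9, Kpnb1, Pcbp2 and Rbm5, and 0 genes had the mirror pattern in NUP98-HOXA9. The 42 became 0 genes with lists of equal length and 21 with −log10 q of at least 5. Gse1, Tex14 and Rara were other genes with long differences and Menin at the start in both lines, with 4061, 1891 and 1529 bp in NUP98-HOXA9 and 9733, 7104 and 5343 bp in NUP98-HOXD13. Gse1 kept 4675 bp in NUP98-HOXD13 at equal list length.

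Longer Menin in NUP98-HOXA9 was rarer and smaller in the full lists. With lists of equal length it was longer there at 919 genes and shorter at 8096, and Hoxb3 had 3605 bp in NUP98-HOXA9 and 0 bp in NUP98-HOXD13. The values that follow are of the full lists unless stated. Tbk1, a kinase gene of the interferon response, had 1270 bp in NUP98-HOXA9 and 745 bp in NUP98-HOXD13. Glra3, which encodes a glycine receptor subunit (chromosome 8, 55940418 to 56130070), had 1943 bp in 4 regions in NUP98-HOXA9 and 0 bp in NUP98-HOXD13. MLL1 at Glra3 covered 8912 bp in NUP98-HOXA9 and 0 bp in NUP98-HOXD13, with no H3K4me3. Nrg1, which encodes the growth factor neuregulin, had 802 bp of Menin in NUP98-HOXA9 and 0 bp in NUP98-HOXD13, beside MLL1 over 7870 bp in NUP98-HOXA9 and 278 bp in NUP98-HOXD13. With −log10 q of at least 5, Nrg1 kept 353 bp of Menin in NUP98-HOXA9. Myo3a, a myosin gene, had 1296 bp of Menin in NUP98-HOXA9 and 0 bp in NUP98-HOXD13. None of these last 3 genes had Menin at the start.

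The promoters of the classes differed in CpG content. RefSeq promoters of 300 bases, 250 before and 50 after each start, were read for 21020 starts, with chromosome 18 not analysed here, and each was classed by the regions it met. Promoters with Menin in NUP98-HOXD13 alone held a median of 20 CpG (quartiles 14 and 28), those in both lines 25 (quartiles 19 and 31) and those in neither 5. The 4 promoters with Menin in NUP98-HOXA9 alone had a median of 5. Within the promoters with Menin in NUP98-HOXD13, the median CpG count was 18 in the lowest of 5 bins by fold and 27 in the highest, so CpG content and fold are not separated here.

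The 12 motifs searched on both strands included some that overlap, since GGAAGT lies within CCGGAAGT. GGGCGG, the core of the GC box, was in 64.7% of promoters with Menin in NUP98-HOXD13 alone, 76.7% of those in both lines and 46.6% of all promoters. CCGGAAGT, an ETS-type sequence, was in 7.46% of those in NUP98-HOXD13 alone, 13.1% of those in both lines and 5.20% of all. CACGTG, the E-box of MYC and its partners, was in 8.71% of those in NUP98-HOXD13 alone, 13.2% of those in both lines and 7.91% of all, and TGACGTCA, the CRE sequence, in 2.18%, 5.10% and 2.26% in the same order. The blood factor motif AGATAA was in 6.02% of promoters in NUP98-HOXD13 alone, 4.00% of those in both lines and 9.69% of all. The GC box, ETS-type, E-box and CRE sequences each hold a CpG. The classes differ in CpG content, so motif share and CpG content are not separated here. The other 7 motifs are listed with the methods. The HOX and PBX pair motif was in 1.12% of promoters in NUP98-HOXD13 alone, 0.521% of those in both lines and 2.78% of all. The MEIS motif was in 17.2%, 15.5% and 18.3% in the same order. The ETS factor and NRF1 motifs were commoner with Menin in both lines than in NUP98-HOXD13 alone, and the others of the 7 rarer. Of the promoters printed above, GGGCGG or its complement was found in those of Pim1, Tkt and Top2a, and CCGGAAGT in that of Meis1.

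**Figure D5:**
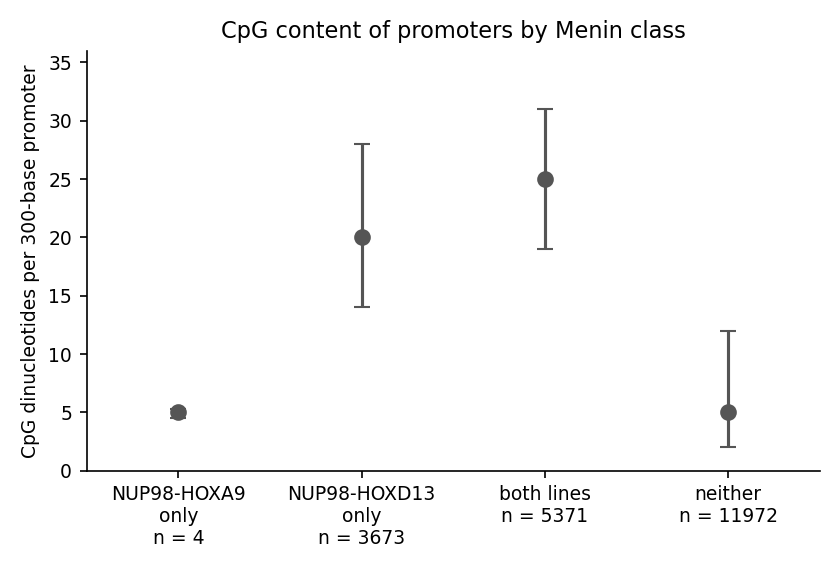
CpG dinucleotides per promoter of 300 bases (vertical axis) for promoters with Menin in NUP98-HOXA9 alone, in NUP98-HOXD13 alone, in both lines and in neither (horizontal axis, with the number of promoters), as the median with bars to the quartiles. The medians were 5 (4 promoters), 20, 25 and 5.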

How the data were processed

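The 5 peak lists used are of DMSO cells, each of 1 library, so peaks were called per sample. The submitters' processing notes name MACS2, bedtools, SAMtools, STAR (2.7.5a), Picard (2.9.4) and bcl2fastq (2.20.0.422), with mm10 as the build. Not given in the sources used here are the role and setting of each tool and the input set against each list. Per the labels, both 96 h inputs of NUP98-HOXA9 were of cells in VTP50469, while NUP98-HOXD13 had a 96 h input of DMSO cells, so folds and list lengths of the lines may rest on unlike inputs. Each deposited row holds an interval, a fold enrichment (a ratio made by the authors), −log10 values of p and q as deposited, and the authors' score and summit offset. Per the labels, DNA was read as paired ends after formaldehyde crosslinking and shearing.

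Regions were compared by overlap of at least 1 bp, with Python 3.11.15, pandas 2.3.3 and SciPy 1.17.1, and the code was tested on simulated intervals. Shares have 95% Wilson intervals. Genes, gene starts and promoters came from RefSeq tables of GRCm38.p6, the same build as mm10. For 17274 genes the start came from the promoter table, and for the other 4357, with no start there, 1 kb either side of both annotated ends was used. The tables give no exons, introns or untranslated regions. Covered length over a list counts bases near more than 1 member more than once, and the Hox cluster values count them once. Closely related genes such as ribosomal protein genes may share reads with copies elsewhere.

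The 22 gene lists, the motifs and the members were chosen with earlier results of these data known, and 4 of the listed symbols were not in the gene table. Genes are named as list members, or as the 10 of highest fold per 1-line class (and, added later, of the NUP98-HOXD13 class with no NUP98-HOXA9 region nearby), the 8 best mean ranks, the 8 longest differences each way and the 5 widest regions of each list, of which 1 gene is not reported here. Lengths over all genes, without the condition of Menin in both lines, and genes with several regions were looked at after values were seen. The other motifs searched were those of AP-1 (TGANTCA), ETS factors (GGAAGT), RUNX (TGTGGT), C/EBP (TTGCNNAA), the HOX and PBX pair (TGATTNAT), MEIS (TGACAG) and NRF1. With 1 library per line no test was run. Alternatives tried were lists of equal length by fold, −log10 q of at least 5, other overlap rules, windows of 500 bp and 5 kb, both annotated ends, summits, and 3 added after the data were seen.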

Additional observations from a re-analysis of the deposited data

How the results depend on the processing

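No paired analysis was possible because each line had 1 Menin library, and no test was run. With both lists at 9050 regions by fold, 78.9% of NUP98-HOXA9 regions and 77.8% of NUP98-HOXD13 regions were shared, 413 genes had Menin in NUP98-HOXA9 alone and 1537 in NUP98-HOXD13 alone, 42.3% of genes had at most 50% of the NUP98-HOXD13 length and 919 had a longer length in NUP98-HOXA9. The number of lists below the share of all genes was then 7, against 12 with the full lists. Lists with no member with Menin in NUP98-HOXD13 were not counted. At equal list length this dropped the Hoxb, mast cell and basophil, and neuronal and epithelial lists, each of which was below the share with the full lists. Part of the fall from 12 to 7 thus comes from lists that could no longer be counted. MLL1 of NUP98-HOXA9 was at 95.2% of the genes with Menin in NUP98-HOXA9 alone, 95.6% of those in NUP98-HOXD13 alone and 99.9% of those in both. MLL1 of NUP98-HOXD13 was at 93.5%, 98.6% and 99.9% of the same classes, and H3K4me3 at 78.5% of the genes in NUP98-HOXD13 alone and 87.0% of those in both. The length difference (NUP98-HOXA9 minus NUP98-HOXD13) turned to 18 bp at Meis1, 363 bp at Pbx3, 311 bp at Etv6, 882 bp at Fli1, 3605 bp at Hoxb3, 1225 bp at Hoxb5, 1852 bp at Hoxc5 and 345 bp at Slc22a4. It turned at 8 of 114 genes followed, moved by over 1.5 times at 51 and kept within that at 55. Of 32 genes followed with 0 bp in NUP98-HOXA9 and some length in NUP98-HOXD13, 12 then had 0 bp in both lines.

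With −log10 q of at least 5, 97.0% of NUP98-HOXA9 regions were shared. The difference turned to -75 bp at Babam2, -815 bp at Hoxb4, -262 bp at Map3k14, -141 bp at Mllt3 and -374 bp at Nvl. MLL1 of NUP98-HOXD13 was at 89.2% of the genes in NUP98-HOXD13 alone, and H3K4me3 at 77.8% of those in NUP98-HOXA9 alone, 68.8% of those in NUP98-HOXD13 alone and 84.1% of those in both.

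With summits within 250 bp, 93.0% of NUP98-HOXA9 regions and 44.7% of NUP98-HOXD13 regions were shared, and with the summit in the gene window 32 genes had Menin in NUP98-HOXA9 alone. Of the alternatives added later, keeping chromosomes 1 to 19 and X and then leaving out the 1% widest regions gave 94.7% and 45.2%. Regions in place of genes gave H3K4me3 at 9.38% in NUP98-HOXA9 alone and, in NUP98-HOXD13 alone, 70.5% and 72.8% for MLL1 of NUP98-HOXA9 and NUP98-HOXD13 and 27.7% for H3K4me3. The windows of 500 bp and 5 kb, and both annotated ends, left the 3 gene counts within 1.5 times. The cause of these shifts was not tested. These lists do not tell a site without Menin from one whose signal missed the calling limit. The 72 h label of MLL1 in NUP98-HOXA9, against 96 h for the other lists, limits comparisons with it. The unlike date codes of the MLL1 and Menin libraries limit comparisons between them too.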

Other observations

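On the X chromosome, 38.9% of the NUP98-HOXD13 Menin regions were shared with NUP98-HOXA9 (95% Wilson interval 33.8% to 44.2%), against 41.5% to 49.5% on the 19 autosomes. The number of Menin regions in NUP98-HOXA9 divided by that in NUP98-HOXD13 was 0.404 on the X chromosome and 0.440 to 0.517 on the autosomes. For MLL1 the same ratio was 1.29 on the X chromosome and 1.05 to 1.20 on the autosomes, so both ratios of the X chromosome lay outside the range of the autosomes, on opposite sides.

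The widest Menin regions in both lists lay at few places. In NUP98-HOXA9 they were a region of 17043 bp on the X chromosome at the end of Mid1 (169989516 to 170006558), 2 regions of 16649 and 13862 bp at the start of chromosome 9, and 2 on an unplaced contig, with folds between 1.16 and 7.21. In NUP98-HOXD13 the widest was 9018 bp on the X chromosome at the same place, and others lay on chromosomes 13 and 17. The folds of the widest NUP98-HOXD13 regions were between 1.94 and 31.3. Each of the widest regions was called in both MLL1 lists and met a region of the other Menin list. Those on chromosome 9 and on the contig were also called in the H3K4me3 list. How uniquely reads map at these places was not examined, so these overlaps are not read as shared binding. The strongest region found in NUP98-HOXA9 alone, with a fold of 17.7, lay outside genes on chromosome 14 (23084870 to 23085145) and had MLL1 in both lines. The next, with a fold of 17.4, lay in Pik3c2g, a lipid kinase gene, and had MLL1 in NUP98-HOXA9 and not in NUP98-HOXD13.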
